A study of Mus musculus with 6 samples.

Results

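The interferon response and class I antigen presentation genes described here are 43 genes, chosen by name and found among the 55414 gene identifiers of each count table through the symbols of the GENCODE M21 annotation. All 43 were found. They fall into 3 receptor chains, 6 transcription factors, 3 sensors of viral RNA, 15 antiviral effectors, 5 genes of ISG15 conjugation and ADP-ribosylation, 5 class I molecules, 4 genes of class I peptide loading and its regulation, and 2 guanylate-binding proteins. A total of 39 had enough reads to be tested, and Oas1a, Oas2, Mx1 and Mx2 did not.

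The study compared acinar cells of the adult mouse pancreas, which make its digestive enzymes, with and without the E3 ubiquitin ligase TRIP12. The 3 control preparations were Pdx1Cre;Trip12+/+ and the 3 knockout preparations Pdx1Cre;Trip12fl/fl, untreated, with 1 RNA sequencing library each. Both groups thus carried the Pdx1-driven Cre recombinase, whose promoter is active in the cells that give rise to the whole pancreatic epithelium, and the knockouts in addition carried 2 loxP-flanked (floxed) Trip12 alleles. The labels name no strain, sex or age in weeks, and do not say whether animals were pooled. By Xist and 4 Y-linked genes, control replicate 1 and all 3 knockouts were male and control replicates 2 and 3 female.

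Gene counts ran from 31019500 to 34041901 per library. Trip12 itself had 29.0, 22.3 and 26.4 CPM (counts per 1e6 library counts, scaled with edgeR's TMM factors) in controls 1 to 3, against 14.4, 14.7 and 13.0 CPM in knockouts 1 to 3, all 3 knockouts below all 3 controls. Counts over the whole gene do not show which exons were lost. All 12 acinar markers had counts in every library and summed to between 329260 and 491195 CPM, so the label was borne out by its defining genes. Markers of other cells were present too. The 20 leukocyte markers summed to 150.0, 35.9 and 24.8 CPM in controls 1 to 3, against 100.8, 23.5 and 76.2 CPM in knockouts 1 to 3, with Cd3g and Ms4a1 at 0 in some libraries. In preparations of this kind, fewer cells of a type and less RNA per cell cannot be told apart.

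Interferons are secreted proteins that alert cells to infection. Type I interferons bind a receptor made of IFNAR1 and IFNAR2 and lead to a complex of STAT proteins with IRF9, which binds the interferon-stimulated response element (ISRE) and turns on antiviral genes. Interferon gamma acts through IFNGR1 and raises, among others, IRF1, the guanylate-binding proteins and the class I pathway. Class I molecules are a heavy chain, such as H2-K1 or H2-D1, paired with beta-2 microglobulin (B2M), and they display peptides that the TAP transporter carries into the endoplasmic reticulum to passing T cells.

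The letters of an ISRE core occur in the promoters of several members. The 250 bases before the RefSeq transcription start (build GRCm38.p6, 5′ to 3′ along the gene) are shown for Stat2, Bst2 and H2-T23, which hold a match and were higher in knockout in the edgeR fit that pairs libraries of the same number, for B2m, which holds a match and was not called, and for H2-K1, which was called in that fit and holds none in either of its 2 windows, the first of which is shown. Capitals mark the ISRE core searched for, GAAA, any 2 bases and GAAA again, on either strand, and the 2 matches in Bst2 overlap. Only these exact letters were counted, so near matches, such as the stretch tttcacttc in H2-K1, were left out. Irf9 and Oasl2, also higher in the fit that pairs libraries, held no match in their windows. The windows are chr10:128270248-128270497 on the plus strand for Stat2, chr8:71537473-71537722 on the minus strand for Bst2, chr17:36032702-36032951 on the minus strand for H2-T23, chr2:122147437-122147686 on the plus strand for B2m and chr17:34000334-34000583 on the minus strand for H2-K1.
Stat2: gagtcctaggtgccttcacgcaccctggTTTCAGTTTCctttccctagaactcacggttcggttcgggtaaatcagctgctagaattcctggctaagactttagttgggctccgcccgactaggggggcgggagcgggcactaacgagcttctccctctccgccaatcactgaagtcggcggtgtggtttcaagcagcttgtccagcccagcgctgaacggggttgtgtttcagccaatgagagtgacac
Bst2: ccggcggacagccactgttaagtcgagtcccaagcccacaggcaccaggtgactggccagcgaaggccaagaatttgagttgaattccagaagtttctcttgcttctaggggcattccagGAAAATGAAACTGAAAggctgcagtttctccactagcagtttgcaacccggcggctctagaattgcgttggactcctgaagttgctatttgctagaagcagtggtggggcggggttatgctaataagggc
H2-T23: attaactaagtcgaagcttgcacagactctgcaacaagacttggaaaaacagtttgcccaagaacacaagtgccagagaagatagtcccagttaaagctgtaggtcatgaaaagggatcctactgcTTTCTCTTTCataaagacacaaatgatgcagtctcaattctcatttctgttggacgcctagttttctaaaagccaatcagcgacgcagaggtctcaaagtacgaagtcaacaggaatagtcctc
B2m: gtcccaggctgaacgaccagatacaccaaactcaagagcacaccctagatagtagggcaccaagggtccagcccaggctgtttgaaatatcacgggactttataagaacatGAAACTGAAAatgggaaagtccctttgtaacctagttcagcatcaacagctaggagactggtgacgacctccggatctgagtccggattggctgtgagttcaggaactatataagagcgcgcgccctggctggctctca
H2-K1: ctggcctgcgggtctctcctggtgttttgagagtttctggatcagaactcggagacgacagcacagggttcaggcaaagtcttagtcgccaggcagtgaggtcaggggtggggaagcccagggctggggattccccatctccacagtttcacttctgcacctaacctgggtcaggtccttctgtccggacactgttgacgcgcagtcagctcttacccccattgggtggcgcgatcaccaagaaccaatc

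Of the 32 members with a RefSeq window from 250 bases before to 50 bases after a start, 14 held this core (B2m, Bst2, Ddx58, Gbp2, Gbp3, H2-T23, Ifih1, Ifit1, Ifit3, Irf2, Isg15, Oas1a, Rsad2 and Stat2), against 3.99% of all 27025 genes with such a window. The matches in Ddx58 (TTTCGATTTC, from base 253 of the window) and Ifih1 (GAAACAGAAA, from base 283) lie after the annotated start. Isg15 held 3 overlapping matches in a row. The gamma-activated sequence TTCNNNGAA, which reads the same on both strands, was found in 8 of the 32 (Bst2, Ifi35, Ifit2, Ifnar1, Ifnar2, Irf1, Irf2 and Oas1a), against 9.55% of all genes. These are matches of letters in members that were chosen as interferon response genes. The other 11 members (Dhx58, Ifi27, Mx1, Mx2, Nlrc5, Oas2, Parp14, Parp9, Rtp4, Tap2 and Usp18) were not matched to a window.

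Over all members, 1 of 39 was called between knockout and control at an adjusted p under 0.05 in edgeR's quasi-likelihood test, namely Ifi27, which was higher, and 0.945% of the 13115 tested genes were called, 0.465% higher. No member was called lower. At an unadjusted p under 0.05, 10 members were higher and 0 lower, where 8.45% of all tested genes were higher and 8.27% lower. DESeq2's Wald test called 3 members, all higher, and 4.53% of all tested genes. Limma-voom called 0 members and 0.640% of all tested genes, with 9 members and 16.6% of all tested genes at an unadjusted p under 0.05. The 39 log2 fold changes ran from -0.63 for Nlrc5 to 1.81 for Ifih1, with a median of 0.40, and 34 were above 0. The median over all tested genes was 0.02, and 52.4% of them were above 0. The 3 knockouts lay above all 3 controls in 9 of the 39 members, against 12.0% of all tested genes, and below them in none, against 10.9%.

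Preparations carry a number from 1 to 3 in each group, and what it stands for is not given. Across all genes, deviations from the group means had correlations of 0.63, 0.455 and 0.285 between libraries of the same number. Other pairs had -0.496 to 0.21. These correlations come from the same data and do not show that the preparations were paired. With the replicate number as a block, 9 of 39 members were called, all of them higher in knockout. Of all tested genes 5.99% were called in that fit, 3.40% higher. The 9 were Stat2, Irf9, Ifih1, Oasl2, Bst2, Ifi27, H2-K1, H2-T23 and Tap2. Without pair 1, 2 or 3 the blocked fit called 4, 0 and 6 members, against 3.09%, 0.729% and 6.11% of all genes tested in those fits. In 23 of the 39 members the knockout was the higher library in all 3 numbered pairs, against 24.2% of all tested genes, and in 2 it was the lower in all 3, against 20.7%.

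The size of the difference rested on which controls the knockouts were set against. Control replicate 1, the male control, was the highest of the controls in 36 of the 39 members, against 38.1% of all tested genes, and it lay above the mean of the knockouts in 24, against 49.9%. Control replicates 2 and 3, the females, both lay below all 3 knockouts in 21 members, against 22.9% of all tested genes, and control replicate 1 in 10, against 30.1%. With sex as a covariate the median of the members' log2 fold changes was -0.13, with 15 above 0 and 24 below, and none was called in edgeR (2 higher and 1 lower at an unadjusted p under 0.05). Of all tested genes 0.160% were called in that fit and 5.96% were higher at an unadjusted p under 0.05. In the 4 male libraries alone the median was -0.12 over 43 members, 16 above 0 and 27 below, with none called and 3 at an unadjusted p under 0.05, against 0.121% and 9.65% of all genes tested there. Of the 9 members called with the block, which that fit chose on partly the same libraries, Ifi27 had a log2 fold change of 1.24 in the male libraries (SE 0.23), Ifih1 1.22 (SE 0.42) and H2-K1 0.97 (SE 0.42). Oasl2 had 0.78 (SE 0.74), Irf9 0.60 (SE 0.30), Bst2 0.49 (SE 0.22) and Stat2 0.36 (SE 0.28). H2-T23 had 0.27 (SE 0.94) and Tap2 0.20 (SE 0.54). These fits rest on 1 male control, and no knockout was female, so that genotype and sex can be separated only through that library.

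**Figure D1:**
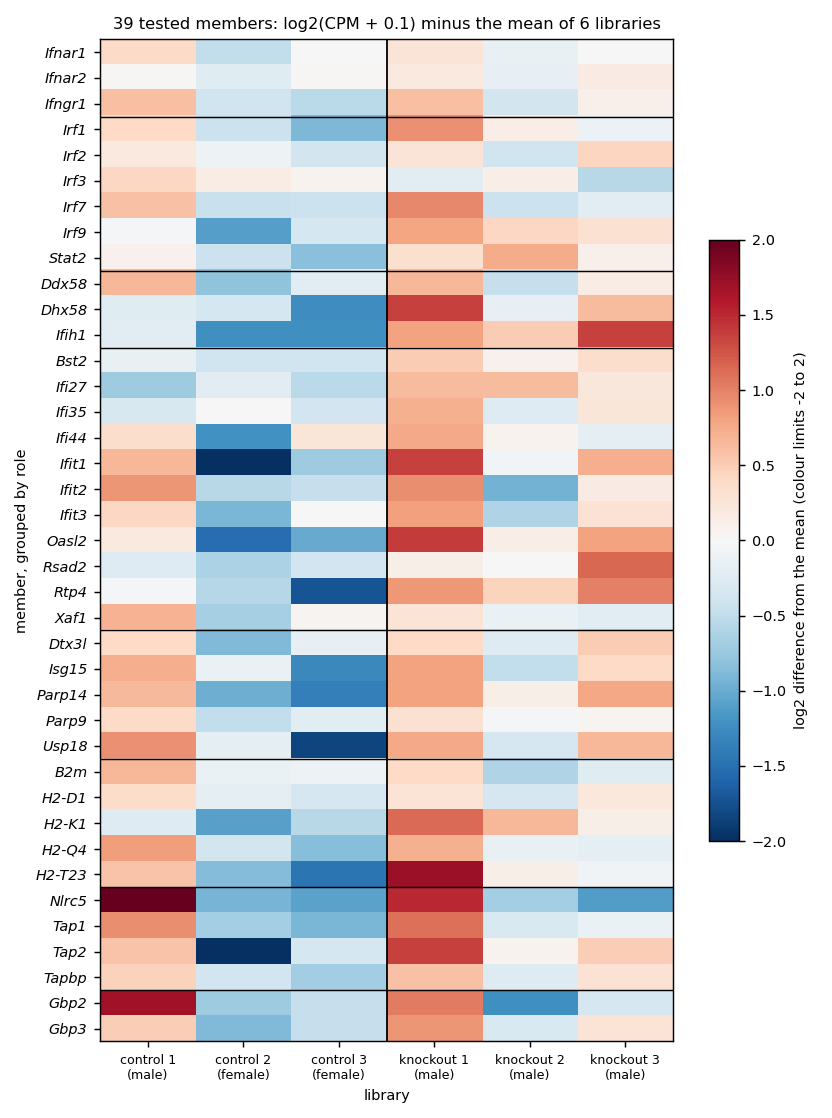
Levels of the 39 tested members, in rows grouped by role, in the 6 libraries, in columns, as log2(CPM + 0.1) minus each member's mean over the libraries. Control replicate 1 is the highest control in 36 members and knockout replicate 1 the highest knockout in 31, and control replicates 2 and 3 both lie below all 3 knockouts in 21.

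None of the receptor chains was called, with or without the block. Ifnar1, the first chain of the type I receptor, had 8.79, 4.72 and 6.69 CPM in the controls, against 7.99, 5.99 and 6.68 CPM in the knockouts, so that the groups overlapped fully (log2 fold change 0.03, SE 0.23). Its partner Ifnar2 lay between 2.75 and 3.78 CPM and Ifngr1, a chain of the interferon gamma receptor, between 3.42 and 7.61 CPM in the 6 libraries. Their adjusted p in edgeR's quasi-likelihood test were 0.966, 0.810 and 0.869. Transcripts of the interferons themselves were scarce. Of 11 ligand genes, 8 had 0 counts in all 6 libraries, Ifnb1 and 5 interferon alpha genes among them, and the highest count of any was 5, for Ifng in control replicate 3. A count of 0 allows up to 3 reads per library, or 0.0804 to 0.123 CPM.

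Among the transcription factors Stat2 and Irf9, the partners that bind the ISRE with other STAT proteins, were both called higher with the block. Stat2 had 7.24, 5.05 and 3.78 CPM in controls 1 to 3, against 8.58, 11.5 and 7.38 CPM in knockouts 1 to 3. Its highest control, replicate 1, lay just below its lowest knockout, replicate 3. The log2 fold change was 0.77 (SE 0.26, adjusted p 0.205 in edgeR and 0.0397 with the block).

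In Irf9 the values were 3.28, 1.52 and 2.62 CPM in the controls, against 5.95, 4.54 and 4.18 CPM in the knockouts, again without overlap. The means were 2.47 CPM ± 0.887 (SD, n = 3) for the controls and 4.89 CPM ± 0.934 for the knockouts. Its log2 fold change was 0.98 (SE 0.29, adjusted p 0.151 in edgeR and 0.0263 with the block). In the GRCm38 annotation Irf9 overlaps Rnf31 on the same strand. Irf3, a factor that is present before infection and is activated by phosphorylation, had a log2 fold change below 0, with 18.3, 15.2 and 14.4 CPM in the controls, against 11.9, 15.1 and 9.31 CPM in the knockouts. Only knockout replicate 2 reached the controls' range, and the difference was not called (log2 fold change -0.40, SE 0.19, adjusted p 0.334 in edgeR and 0.142 with the block). Irf1, the early interferon gamma factor, Irf2, its antagonist, and Irf7, which amplifies type I responses, had log2 fold changes of 0.60, 0.22 and 0.27, with adjusted p in edgeR of 0.521 or more and overlapping groups.

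Of the RNA sensors, Ifih1 had the highest log2 fold change of the 39 tested members without the block. It encodes MDA5, the cytosolic sensor of long double-stranded RNA. Its values were 1.98, 0.945 and 0.945 CPM in controls 1 to 3 (63, 23 and 26 reads), against 4.18, 3.37 and 6.17 CPM in knockouts 1 to 3 (156, 118 and 230 reads). Every knockout was thus well above every control. The mean was 1.29 CPM ± 0.600 (SD, n = 3) for the controls and 4.57 CPM ± 1.44 for the knockouts, 3.54 times as high. The log2 fold change was 1.81 (SE 0.37, adjusted p 0.0609 in edgeR and 0.00775 with the block). It was called in 8 of 21 alternative analyses, and its log2 fold change stayed between 1.20 and 2.27 in them.

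The other sensors did not follow it evenly. Dhx58 encodes LGP2, which modulates MDA5, and had 0.535, 0.493 and 0.218 CPM in the controls, against 1.85, 0.571 and 1.07 CPM in the knockouts, on 6 to 69 reads per library. The groups did not overlap, but knockout replicate 2 was close to the controls (log2 fold change 1.48, SE 0.58, adjusted p 0.252 in edgeR and 0.124 with the block). Ddx58, which encodes RIG-I, the sensor of short RNA with a 5′ triphosphate, had 4.03, 1.40 and 2.14 CPM in the controls, against 4.02, 1.80 and 2.79 CPM in the knockouts, and each knockout lay close to the control of its number (log2 fold change 0.18, SE 0.43).

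**Figure D2:**
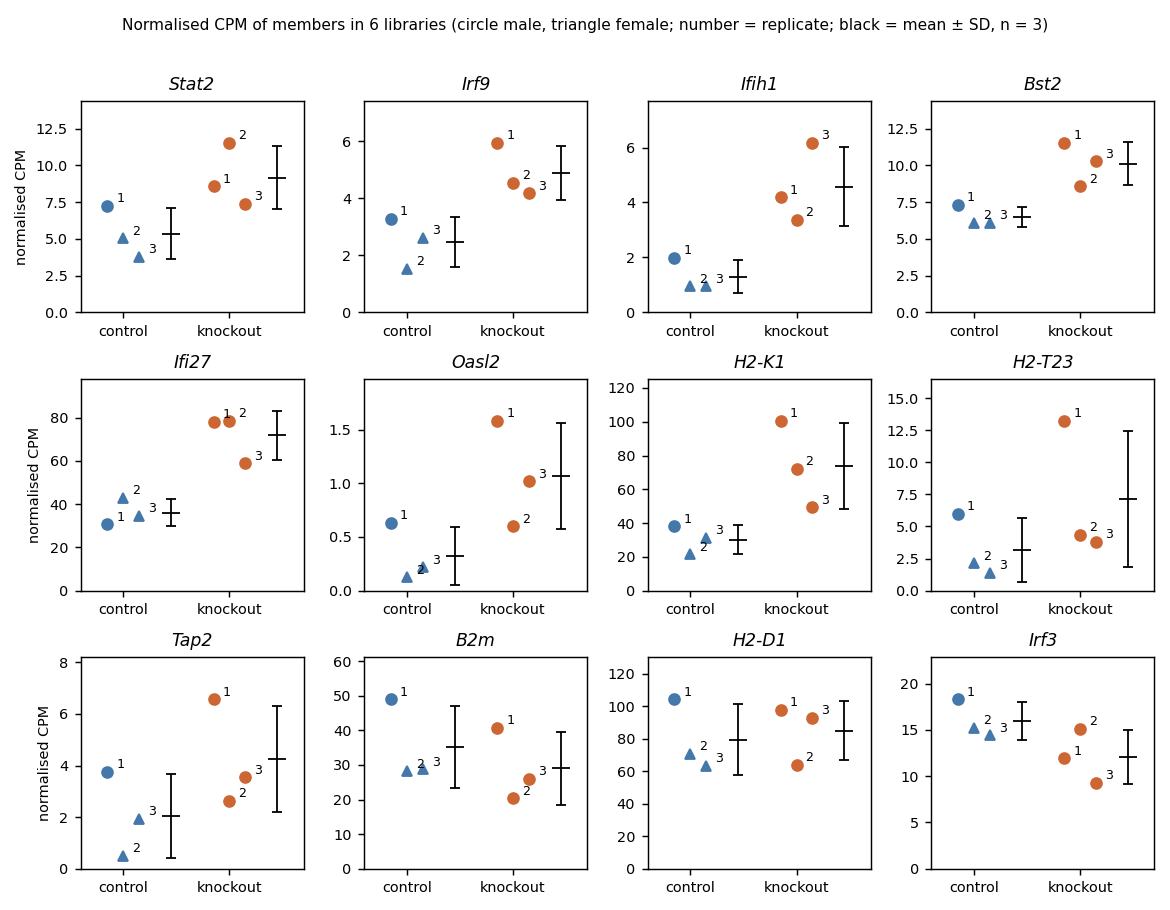
Normalised CPM, on axes that start at 0, of the 9 members called with the replicate block and of B2m, H2-D1 and Irf3, in each library, with the mean and SD of each group of 3 in black. In Ifih1, Irf9, Bst2, Ifi27 and H2-K1 every knockout lies above every control, whereas in B2m and H2-D1 the groups overlap and replicate 1 is the highest or near-highest in both.

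The antiviral effectors held the only member called without the block. This was Ifi27, which encodes a small mitochondrial protein. It had 30.7, 43.0 and 34.5 CPM in controls 1 to 3, against 78.2, 78.4 and 58.8 CPM in knockouts 1 to 3. The highest control was below the lowest knockout, and control replicate 1 was here the lowest of the 3 controls. The means were 36.1 CPM ± 6.31 (SD, n = 3) for the controls and 71.8 CPM ± 11.2 for the knockouts. Ifi27 thus rose 1.99-fold (log2 fold change 0.99, SE 0.18), and its Benjamini-Hochberg adjusted p was 0.0478 by the quasi-likelihood test of edgeR and 0.00433 with the block. Dropping single libraries ended the call in 5 of 6 cases and kept it without control replicate 1 (adjusted p 0.0462), at log2 fold changes of 0.86 to 1.14. It was also lost with DESeq2's size factors in edgeR (0.0531), in limma-voom (0.0579), with sex as a covariate (0.171) and in the male libraries (log2 fold change 1.24, adjusted p 0.226). The exact two-sided permutation test gave p = 0.1, the smallest that 3 against 3 allows.

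Bst2, or tetherin, which holds budding virus at the cell surface, had 7.31, 6.08 and 6.11 CPM in the controls, against 11.5, 8.56 and 10.3 CPM in the knockouts. The 3 controls were close together, and all 3 knockouts were above them. The means were 6.50 CPM ± 0.701 (SD, n = 3) for the controls and 10.1 CPM ± 1.49 for the knockouts (log2 fold change 0.64, SE 0.16, adjusted p 0.107 in edgeR and 0.0287 with the block). Oasl2, an oligoadenylate synthetase-like protein, had 0.630, 0.123 and 0.218 CPM in the controls, against 1.58, 0.599 and 1.02 CPM in the knockouts, on 3 to 59 reads per library. Control replicate 1 reached above knockout replicate 2, so the groups overlapped, and the adjusted p was 0.255 in edgeR without the block and 0.0498 with it, at a log2 fold change of 1.68 (SE 0.66).

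Rsad2 encodes viperin, an enzyme that makes a chain-terminating nucleotide. Its values were 1.20, 0.904 and 1.09 CPM in the controls, against 1.58, 1.46 and 3.35 CPM in the knockouts, without overlap and with knockout replicate 3 far above the rest (log2 fold change 1.00, SE 0.40, adjusted p 0.260 in edgeR and 0.139 with the block). Rtp4, a chaperone-like interferon-induced protein, had 11, 5 and 1 reads in the controls and 27, 18 and 30 in the knockouts, also without overlap (log2 fold change 1.76, SE 0.70, adjusted p 0.258 in edgeR and 0.131 with the block). At such depth a fold change is imprecise. Rtp4 overlaps Masp1 on the opposite strand and Gm45338 on the same strand. It shares 9.28% of its 100-base stretches with Gm45338, so a part of its reads is uncertain.

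The best-known interferon-stimulated effectors were near the limit of detection in both groups. Ifit1, which binds foreign 5′ ends of RNA, had 17, 0 and 4 reads in the controls and 35, 10 and 21 in the knockouts, and Ifit2 and Ifit3 had 4 to 45 reads per library. Ifit3 shares 31.7% of its 100-base stretches with Ifit3b, and Oas1a 40.9% with Oas1g, so that reads of these pairs cannot all be assigned. Mx1, a dynamin-like antiviral GTPase that is truncated in many laboratory strains, had 36, 0 and 0 reads in the controls and 17, 4 and 6 in the knockouts, and Mx2 at most 19. Oas2 had 4, 1 and 4 reads in the controls and 15, 6 and 14 in the knockouts. Of the 11 tested effectors, 10 had log2 fold changes above 0, the exception being Xaf1 at -0.18 (SE 0.56), and their median was 0.64. Ifi35 and Ifi44 were at 0.55 and 0.39, with adjusted p in edgeR of 0.515 and 0.848.

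None of the 5 genes of ISG15 conjugation and ADP-ribosylation was called in edgeR, with or without the block. Isg15, the ubiquitin-like modifier itself, had 19, 7 and 2 reads in the controls and 24, 7 and 17 in the knockouts, and Usp18, the protease that removes it and restrains the type I receptor, had 26, 8 and 1 reads in the controls and 27, 10 and 25 in the knockouts. In both, control replicate 3 was low and the other libraries overlapped. Parp9 and Dtx3l, which form an ADP-ribosyltransferase and ubiquitin ligase complex and overlap each other on opposite strands, had log2 fold changes of 0.18 (SE 0.25) and 0.39 (SE 0.38). Parp9 had 5.32, 2.83 and 3.45 CPM in the controls, against 5.04, 3.97 and 4.21 CPM in the knockouts. Parp14, a large relative, had 4.38, 1.36 and 1.02 CPM in the controls, against 4.93, 3.00 and 4.80 CPM in the knockouts, with control replicate 1 at the level of the knockouts (log2 fold change 0.90, SE 0.55, adjusted p 0.482 in edgeR and 0.112 with the block).

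Of the class I molecules, H2-K1 and H2-T23 were called higher with the block and none was called without it. H2-K1, a classical heavy chain, had 38.1, 21.4 and 31.2 CPM in controls 1 to 3 (1209, 522 and 857 reads), against 100.4, 72.1 and 49.4 CPM in knockouts 1 to 3 (3745, 2525 and 1840 reads). All 3 knockouts were above all 3 controls, and the mean was 30.2 CPM ± 8.36 (SD, n = 3) for the controls and 73.9 CPM ± 25.6 for the knockouts, 2.45 times as high. The log2 fold change was 1.29 (SE 0.30, adjusted p 0.107 in edgeR and 0.00518 with the block) and lay between 0.96 and 1.67 in all 21 alternatives. H2-D1, the other classical heavy chain of the list, was not called in either fit. Its values were 104, 70.6 and 63.5 CPM in the controls, against 97.6, 64.1 and 92.8 CPM in the knockouts, on 1719 to 3643 reads per library, and the groups overlapped fully (log2 fold change 0.09, SE 0.23, adjusted p 0.894 in edgeR).

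B2m, the light chain that every class I molecule needs, had 48.9, 28.1 and 28.7 CPM in controls 1 to 3, against 40.6, 20.3 and 26.0 CPM in knockouts 1 to 3. In each numbered pair the knockout was the lower, yet the spread between numbers was larger than that difference (log2 fold change -0.28, SE 0.32, adjusted p 0.730 in edgeR and 0.226 with the block). The direction depended on scaling, with a log2 fold change of 0.09 when library totals replaced TMM factors, a change that added 0.41 to the median of all tested genes. B2m overlaps Patl2 on the opposite strand in the GRCm38 annotation.

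H2-T23 encodes Qa-1, a nonclassical class I molecule that signals to natural killer cells. It had 5.98, 2.14 and 1.38 CPM in the controls, against 13.2, 4.34 and 3.81 CPM in the knockouts. Control replicate 1 exceeded knockout replicates 2 and 3, while within each number the knockout was higher, by 1.13, 1.00 and 1.42 on the log2 scale. The adjusted p was 0.532 in edgeR without the block and 0.00415 with it, at log2 fold changes of 1.16 (SE 0.77) and 1.20 (SE 0.18). H2-Q4, another nonclassical heavy chain, had 10.2, 4.40 and 3.09 CPM in the controls, against 9.30, 5.11 and 4.99 CPM in the knockouts (log2 fold change 0.12, SE 0.50). The heavy chains are alike in sequence and vary between mouse strains. Between 0.957% of 100-base stretches in H2-K1 and 3.59% in H2-D1 also occurred in transcripts of other genes, so a part of their reads is uncertain.

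Per kilobase of exon, B2m was the most abundant member in control, at 41.0 CPM per kilobase, followed by H2-D1 at 30.8, Ifi27 at 24.6 and H2-K1 at 10.3. In knockout the order was Ifi27 at 48.9 CPM per kilobase, B2m at 33.7, H2-D1 at 32.9 and H2-K1 at 25.2. Whether B2m and H2-D1 differed from each other in either group was not tested.

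Of the genes that load class I molecules, Tap2, which with Tap1 forms the peptide transporter, was called with the block. It had 3.75, 0.493 and 1.93 CPM in the controls (119, 12 and 53 reads), against 6.57, 2.63 and 3.54 CPM in the knockouts (245, 92 and 132 reads). Control replicate 1 lay among the knockouts and control replicate 2 far below the rest, and the adjusted p was 0.535 in edgeR and 0.0397 with the block (log2 fold changes 1.03, SE 0.70, and 1.21, SE 0.30). Tap1, which overlaps Psmb9 on the opposite strand, had 5.98, 1.89 and 1.60 CPM in the controls, against 6.73, 2.48 and 2.82 CPM in the knockouts. Tapbp, or tapasin, which bridges the transporter and the heavy chain, had 9.35, 5.18 and 4.18 CPM in the controls, against 10.3, 5.68 and 8.31 CPM in the knockouts. Each was higher in the knockout of every numbered pair, but neither was called, with adjusted p of 0.862 and 0.662 in edgeR and 0.267 and 0.235 with the block.

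Nlrc5, the transactivator of class I genes, and Gbp2 followed the library number. Nlrc5 had 5.83, 0.534 and 0.473 CPM in the controls, against 3.32, 0.657 and 0.456 CPM in the knockouts, so that replicate 1 was high in both groups and the other 4 libraries were low (log2 fold change -0.63, SE 1.29, adjusted p 0.872 in edgeR). Gbp2, an interferon gamma-induced GTPase, had 2.58, 0.411 and 0.509 CPM in the controls, against 1.61, 0.257 and 0.563 CPM in the knockouts, with the same pattern (log2 fold change -0.54, SE 0.90). Without control replicate 1 its log2 fold change was 0.79. Gbp3 had a log2 fold change of 0.60 (SE 0.56) and was not called.

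**Figure D3:**
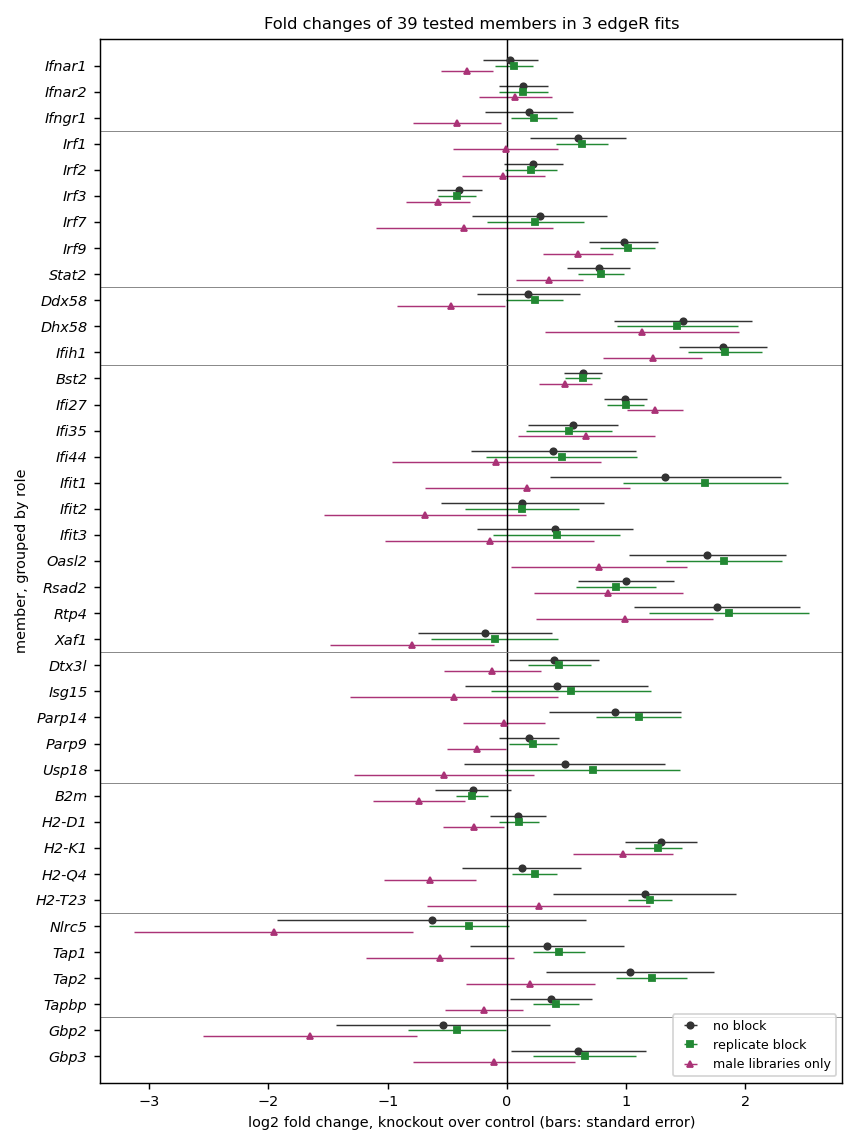
Log2 fold changes of the 39 tested members, with standard errors, in edgeR fits without a block, with the replicate number as a block and on the male libraries only, in rows grouped by role. The first 2 fits give similar sizes with smaller errors under the block. The median of the 39 is 0.40 without the block and -0.11 in the male libraries. There 15 of the 39 lie to the right of 0 and 24 to the left. The 9 members called with the block, which that fit chose on partly the same libraries, are among the 15.

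The sum of the leukocyte markers was highest in replicate 1 of each group, while single markers varied. Replicate 1 was the highest control in 18 of the 20 and the highest knockout in 12, and knockout replicate 3 was the highest knockout in 7, the macrophage genes Adgre1, C1qa, C1qb and C1qc among them. Class II presentation genes (H2-Aa, H2-Ab1, H2-Eb1, Cd74 and Ciita), which leukocytes express strongly, summed to 161, 31.9 and 11.1 CPM in controls 1 to 3, against 116, 22.04 and 40.3 CPM in knockouts 1 to 3. The 5 class I members summed to 207, 127 and 128 CPM in the controls, against 261, 166 and 177 CPM in the knockouts, and the 4 loading members to 24.9, 8.09 and 8.18 CPM and 26.9, 11.4 and 15.1 CPM. Replicate 1 was the highest library of its group in each of these sums, as in those of 6 endothelial markers (94.0, 21.6 and 37.2 CPM in the controls and 119, 33.97 and 41.9 CPM in the knockouts). The 15 antiviral effectors were at 46.6, 52.6 and 45.2 CPM in the controls, against 101, 92.5 and 79.3 CPM in the knockouts. Ifi27 made up most of this sum, and its own highest control was replicate 2 (30.7, 43.0 and 34.5 CPM in controls 1 to 3). The members other than Ifi27, H2-K1 and H2-D1 summed to 189, 102 and 103 CPM in the controls. Their sums in knockouts 1 to 3 were 200, 123 and 142 CPM, so replicate 1 was the highest in each group. The leukocyte markers had mean sums of 70.3 CPM ± 69.3 (SD, n = 3) and 66.8 CPM ± 39.5 in the 2 groups, and the part of leukocyte RNA in the members' levels was not tested. The acinar markers summed to 370141, 491195 and 470716 CPM in the controls and to 335576, 329260 and 342508 CPM in the knockouts, all 3 of which were lower. With the digestive enzymes left out of the library sizes, the same number of members was called, 1. With the block, 4 of the 16 tested leukocyte markers were called higher (Adgre1, C1qa, C1qb and C1qc) and 1 lower. Of all tested genes, 3.40% were called higher and 2.58% lower in that fit. The log2 fold changes of these markers were above 0 in 9 and below 0 in 7. Among the latter, Cd79a was at -1.43 and Ptprc at -0.56, and neither was called (adjusted p 0.0756 and 0.386 in edgeR with the block).

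**Figure D4:**
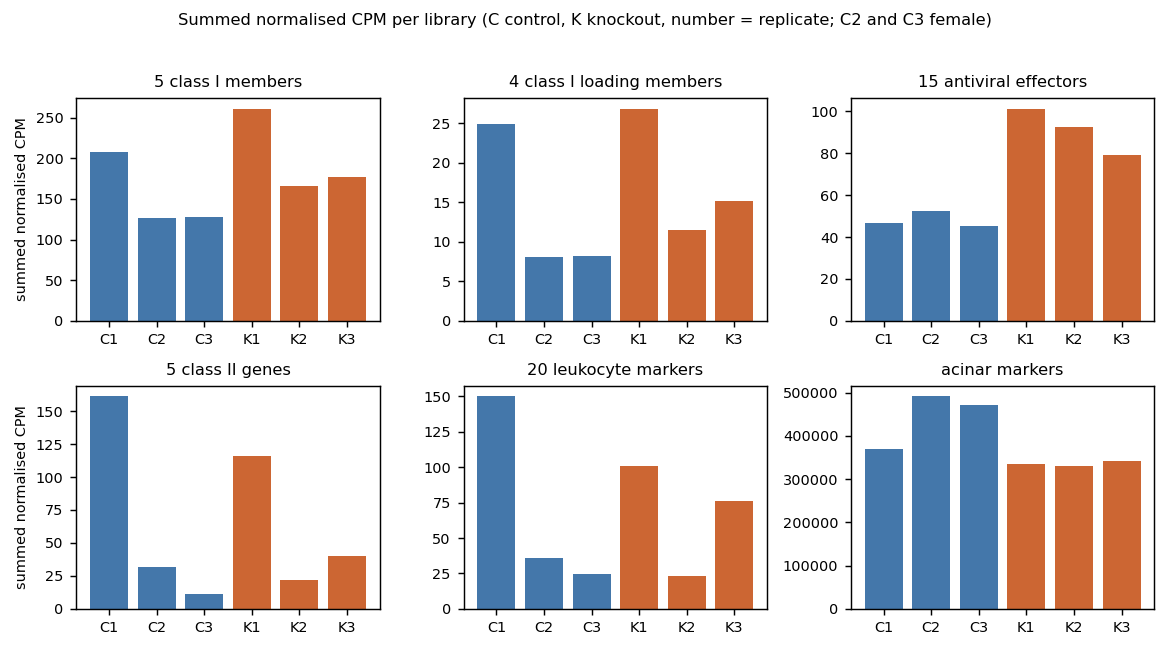
Summed normalised CPM per library, as bars from 0, of 3 groups of members (top row) and of class II genes, leukocyte markers and acinar markers (bottom row). Control replicate 1 and knockout replicate 1 are the highest of their groups in class I, class I loading, class II and leukocyte sums. The sum of the antiviral effectors, most of it Ifi27, is higher in every knockout than in every control.

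Other genes of the same pathways were examined as a list of 100, of which 73 were tested. In edgeR without the block 1 was called, Ifitm3, and with the block 4 were, Ifitm3, Adar, Tor3a and Irf2bp2, all higher in knockout. Of all tested genes, 0.945% were called without the block (0.465% higher) and 5.99% with it (3.40% higher). At an unadjusted p under 0.05 without the block, 7 were higher and 4 lower, against 8.45% and 8.27% of all tested genes. These unadjusted counts of the 73 without the block were near the shares over all genes. With the block, 18 were higher and 5 lower at an unadjusted p under 0.05. Over all 13115 tested genes, 1628 were higher and 1305 lower at that threshold in that fit. The median log2 fold change was 0.20 without the block, with 44 above 0 and 29 below. It was 0.28 with the block, with 51 above 0 and 22 below, and -0.28 with sex as a covariate. Their summed level was 647 to 792 CPM in the controls and 644 to 739.9 CPM in the knockouts.

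Ifitm3, a membrane protein that blocks fusion of virus in endosomes, had 11.7, 12.8 and 10.2 CPM in controls 1 to 3, against 23.2, 21.4 and 20.5 CPM in knockouts 1 to 3. Both groups were tight and far apart, and like Ifi27 it was not highest in control replicate 1. The means were 11.5 CPM ± 1.30 (SD, n = 3) for the controls and 21.7 CPM ± 1.38 for the knockouts. Ifitm3 thus rose by 0.91 on the log2 scale (SE 0.13, adjusted p 0.0202 in edgeR and 0.00321 with the block). The call was kept without control replicate 1 (adjusted p 0.0242) and ended when any other single library was dropped (log2 fold changes 0.83 to 0.99), and in the male libraries the log2 fold change was 0.91 with an adjusted p of 0.226.

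Adar, which edits double-stranded RNA so that MDA5 does not sense it, had 5.48, 2.51 and 3.27 CPM in the controls, against 7.42, 6.68 and 6.65 CPM in the knockouts, without overlap (log2 fold change 0.87, SE 0.27, adjusted p 0.160 in edgeR and 0.0239 with the block). Tor3a, an interferon-induced torsin ATPase, had 2.77, 0.657 and 1.74 CPM in the controls, against 4.61, 2.74 and 3.38 CPM in the knockouts, where control replicate 1 just passed knockout replicate 2 (adjusted p 0.320 in edgeR and 0.0383 with the block). Irf2bp2, a corepressor that binds IRF2, had 29.0, 26.1 and 54.0 CPM in the controls, against 45.6, 43.2 and 71.3 CPM in the knockouts, higher in each pair but overlapping (adjusted p 0.460 in edgeR and 0.0301 with the block). Under the sex covariate none of these 4 was called.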

How the data were processed

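Counts were deposited per gene and library as raw whole numbers, without regard to strand and per strand. Per the submitters' processing notes STAR 2.7.10a and build GRCm39 (mm39) were used. The annotation and whether 1 count is a read or a read pair are not given in the sources used here, and counts are called reads. Rows outside genes held unmapped (9.70% to 13.0% of all reads), multiply mapped (21.6% to 28.4%), outside-gene and ambiguous reads and were left out. Symbols, exonic lengths and overlaps came from GENCODE M21 (GRCm38), which matched 52133 of 55414 identifiers, and promoter windows from RefSeq (GRCm38.p6). Shared sequence is the share of 100-base stretches of a member's transcripts also found in another gene's.

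Unstranded counts were tested with edgeR 4.0.16 (R 4.3.3; filterByExpr, TMM, robust quasi-likelihood F test), with Benjamini-Hochberg adjustment over 13115 genes and calls at an adjusted p under 0.05. The standard error is the log2 fold change divided by the square root of F. DESeq2 1.42.0 and voom of limma 3.58.1 were alternatives, and the edgeR step was tested on simulated data. P-values measure the spread between preparations, whose source animals the labels do not describe. Same-numbered libraries had correlations of deviations from the group means of 0.63, 0.455 and 0.285, other pairs -0.496 to 0.21, so the numbers were taken to pair them. The deviations within a group of 3 cancel out, so these correlations depend on each other and do not show that the preparations were paired. What a number stands for is not given, and pairs 2 and 3 set a female control against a male knockout. Members shown in every library are those at an unadjusted p under 0.05, called with the block, B2m or the most abundant of a role. Values by library of Ddx58, H2-Q4, Ifit1, Isg15, Nlrc5, Parp14, Tap1, Usp18, Mx1 and Oas2 were added after they were seen. Members and lists were chosen with earlier results of these data known. Fits on male libraries were added after seeing the data. The single-gene result of a leukocyte marker is not reported here.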

Additional observations from a re-analysis of the deposited data

How the results depend on the processing

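Without the replicate block, 1 member was called. The count was 4 with library totals, 0 with DESeq2 size factors in edgeR, 6 without a filter on low counts, 2 when every library had to hold 10 counts or more, 3 with DESeq2's Wald test, 0 with limma-voom and 0 with sex as a covariate. It was 9 with the replicate block, and 4, 0 and 6 in the blocked fits without pair 1, 2 or 3. It was 0 to 3 without 1 library at a time and 0 in the male libraries. Of the other pathway genes 1 was called, and 5 with library totals, 4 without a filter, 2 with DESeq2, 2 with reverse-strand counts, 0 with sex as a covariate, 4 with the replicate block, 3, 0 and 8 in the blocked fits without a pair and 0 to 5 without 1 library. Over all genes 124 were called, and 1519 with library totals (1442 higher, 77 lower), 850 without a filter, 210 under that stricter filter, 594 with DESeq2, 785 with the replicate block, 396, 100 and 832 in the blocked fits without pair 1, 2 or 3, 21 with sex as a covariate, 18 in the male libraries and 20 to 461 without 1 library. Library totals added 0.41 to the median of all genes. The cause of the other changes was not tested.

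The median of the members' log2 fold changes was -0.13 with sex as a covariate and -0.12 in the male libraries, and it stayed above 0 in every other setting run, from 0.16 without knockout replicate 1 to 0.86 without control replicate 1. With sex as a covariate 24 of the 39 members were below 0, against 5 without it. Of the members given by library under the naming rule, 6 changed direction in some setting. Ifnar1 was -0.35 with sex as a covariate, -0.33 in males, -0.17 to 0.25 without 1 library at a time and -0.072 in the blocked fit without pair 2. H2-D1 was -0.30 with sex as a covariate, -0.28 in males, -0.042 to 0.32 without 1 library at a time and -0.12 in the blocked fit without pair 3. Parp9 was -0.27 and -0.25, and Tapbp -0.21 and -0.19, with sex as a covariate and in males. B2m was 0.094 with library totals. Without 1 library at a time B2m was -0.61 to 0.0069 and Gbp2 -1.51 to 0.79, both highest without control replicate 1. No member named here that was called with the block changed direction in any setting. The settings reuse some or all of the libraries on which the blocked fit chose these members. Their kept direction is therefore not independent support. With 3 libraries a group, members under about 10 reads per library were not measured precisely.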
